A study of Mus musculus with 2 samples.

Results

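CTCF binding was described around the 6 mouse Dlx genes, which lie in 3 pairs: Dlx1-Dlx2 on chromosome 2, Dlx5-Dlx6 on chromosome 6 and Dlx3-Dlx4 on chromosome 11. Every peak summit of the authors' optimal peak list that fell inside a pair or within 200 kb of either end of it was taken, with no regard to its strength. In the mm10 assembly with GENCODE M21 gene models, the pairs span chr2:71528113-71546754, chr6:6863334-6882085 and chr11:95120119-95146263. This gave 48 summits of the 56462 in the list that lie on assembled chromosomes: 11 around Dlx1-Dlx2, 8 around Dlx5-Dlx6 and 29 around Dlx3-Dlx4.

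The study was a chromatin immunoprecipitation and sequencing (ChIP-seq) experiment with an antibody against CTCF in forebrain of B6NCrl mice at postnatal day 0. Forebrains from several dissections were pulverised and combined, and sex was not recorded. All samples belong to 1 group of 2 libraries, replicate 1 and replicate 2, which the labels give as biological replicates although both cite the same biosample and donor. There was no second condition, a possible control experiment named in the labels was not used here, and the spread between the libraries may be technical. In whole forebrain, a site used by few cells and a site used weakly by many cannot be told apart.

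CTCF, a DNA-binding protein with many zinc fingers, recognises an asymmetric motif and stops cohesin as it extrudes chromatin loops. Loops form most often between sites whose motifs point towards each other. The Dlx genes encode homeodomain transcription factors and are arranged tail to tail, each pair sharing the DNA between its genes. Dlx1, Dlx2, Dlx5 and Dlx6 are known for their expression in the ganglionic eminences of the embryonic forebrain, where they direct the differentiation and migration of GABAergic neurons. Dlx3 and Dlx4 are known from skin, placenta, teeth and the branchial arches and not from the forebrain. By descent, Dlx2, Dlx5 and Dlx3 form a branch of the family, and Dlx1, Dlx6 and Dlx4 form the other, so each pair holds a gene of both branches.

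The sequences below are the sites that the results turn on, from the mm10 genome and 40 bases long, each read 5′ to 3′ on the strand of its best match to the 14-base core consensus of CTCF. Capitals mark the 14 bases of that match. The first set holds the summits just upstream of Dlx2, Dlx5 and Dlx3, shown because these genes of the same branch each had a CTCF site close to their 5′ end.
Dlx2, 1268 bp upstream, chr2:71548011-71548050, minus strand: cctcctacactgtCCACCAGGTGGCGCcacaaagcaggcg
Dlx5, 3042 bp upstream, chr6:6885111-6885150, minus strand: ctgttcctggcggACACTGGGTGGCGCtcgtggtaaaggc
Dlx3, 1412 bp upstream, chr11:95118686-95118725, plus strand: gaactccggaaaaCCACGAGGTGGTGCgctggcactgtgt
Dlx3, 2958 bp upstream, chr11:95117123-95117162, plus strand: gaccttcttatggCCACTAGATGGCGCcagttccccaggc

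The second set holds the summits inside a pair, which the optimal list held in the Dlx5-Dlx6 pair and in no other, and the first summit upstream of Dlx4, shown as the counterpart of the first set. The 2 inside summits had no match within the limit of 2 mismatches used here, so their capitals mark only the closest 14 bases.
Between Dlx6 and Dlx5, chr6:6870544-6870583, minus strand: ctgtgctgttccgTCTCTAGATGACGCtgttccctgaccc
Dlx5 intron, chr6:6879025-6879064, minus strand: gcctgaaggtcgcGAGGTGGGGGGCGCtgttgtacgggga
Dlx4, 14665 bp upstream, chr11:95160897-95160936, minus strand: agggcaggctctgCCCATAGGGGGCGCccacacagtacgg

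The third set holds other strong sites of the windows: the strongest around Dlx1-Dlx2, the second strongest around Dlx5-Dlx6 and the strongest around Dlx3-Dlx4.
Dlx1-Dlx2 window, chr2:71599003-71599042, plus strand: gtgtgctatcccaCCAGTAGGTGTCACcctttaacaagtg
Dlx5-Dlx6 window, chr6:6915326-6915365, minus strand: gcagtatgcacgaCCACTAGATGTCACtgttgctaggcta
Dlx3-Dlx4 window, chr11:95259270-95259309, plus strand: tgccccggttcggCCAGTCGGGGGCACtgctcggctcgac

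CTCF summits were sparser around the forebrain pairs than around Dlx3-Dlx4. The Dlx1-Dlx2 window held 26.3 summits per Mb (95% Poisson interval 13.1 to 47.0) and the Dlx5-Dlx6 window 19.1 per Mb (8.25 to 37.6), against 68.1 per Mb (45.6 to 97.7) in the Dlx3-Dlx4 window. Together the forebrain windows held 19 summits in 0.837 Mb, or 22.7 per Mb, which was 0.333 times the density around Dlx3-Dlx4 (95% interval 0.177 to 0.615, p = 0.00018, exact 2-sided binomial test of the counts given the lengths). The test covers counting error only and takes summits as independent of each other. With 100 kb in place of 200 kb on each side the ratio was 0.517 (0.221 to 1.21), from 13 summits in the forebrain windows and 13 around Dlx3-Dlx4, and the difference no longer passed (p = 0.0988, exact binomial test).

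The difference was as large away from promoters. Of summits more than 1 kb from any annotated transcription start site (TSS), 16 lay in the forebrain windows and 26 in the Dlx3-Dlx4 window, a ratio of 0.313 (0.157 to 0.606, p = 0.000229, same exact test). The windows also differed in what they hold: 5 protein-coding genes have a TSS in the Dlx1-Dlx2 window and 3 in the Dlx5-Dlx6 window, against 12 in the Dlx3-Dlx4 window. GC content was 44.1% around Dlx1-Dlx2 and 40.9% around Dlx5-Dlx6, against 50.4% around Dlx3-Dlx4. The part of gene number and base composition in the difference was not tested.

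**Figure D1:**
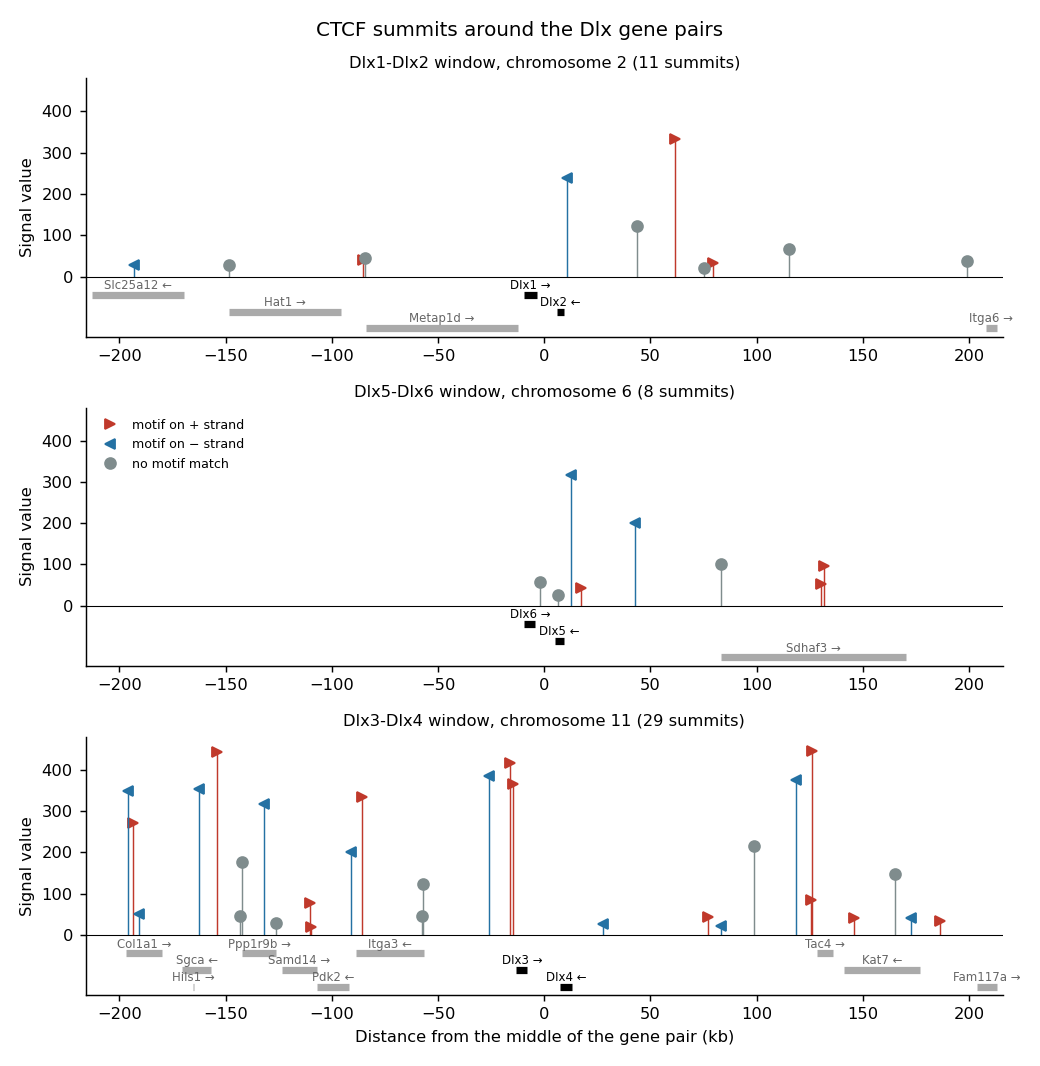
Signal value (y axis) of each optimal-list summit against its distance in kb from the middle of the gene pair (x axis), with protein-coding genes drawn below as bars and arrows for their direction (Dlx genes black). Triangles point along the strand of the motif match and grey circles have none; the Dlx5-Dlx6 window has no summit on the Dlx6 side, and 12 summits of the Dlx3-Dlx4 window exceed 200.

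The map of the windows shows where the summits lay. In the Dlx1-Dlx2 window, 4 summits lay on the Dlx1 side and 7 on the Dlx2 side, with none in the 18642 bp of the pair itself. In the Dlx5-Dlx6 window, 6 summits lay on the Dlx5 side, 2 inside the pair of 18752 bp and 0 on the Dlx6 side. In the Dlx3-Dlx4 window, 18 summits lay on the Dlx3 side and 11 on the Dlx4 side, with none in the 26145 bp of the pair.

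Tail-to-tail neighbours are common, so the pairs were placed among all 2626 neighbouring protein-coding pairs of that arrangement whose genes are at most 20 kb apart. Over those pairs the median was 43.1 summits per Mb within 200 kb, with quartiles of 26.7 and 61.7. The density around Dlx1-Dlx2 stood at the percentile 24.2 and that around Dlx5-Dlx6 at 13.8, against 81.3 for Dlx3-Dlx4. Dlx5-Dlx6 thus lay below the lower quartile, Dlx1-Dlx2 close to it and Dlx3-Dlx4 above the upper one. Among pairs with genes up to 50 kb apart, Dlx1-Dlx2 stood at the percentile 29.0, above the lower quartile of 23.7. At least 1 summit inside the pair was found for 82.4% of the 2626 pairs, and of the Dlx pairs only Dlx5-Dlx6 had any in the optimal list. The conservative list and the top peaks of either replicate alone each placed 1 summit inside Dlx1-Dlx2, at the Dlx2 promoter. The Dlx pairs are also short, since the median of the 2626 pairs spans 49001.5 bp.

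**Figure D2:**
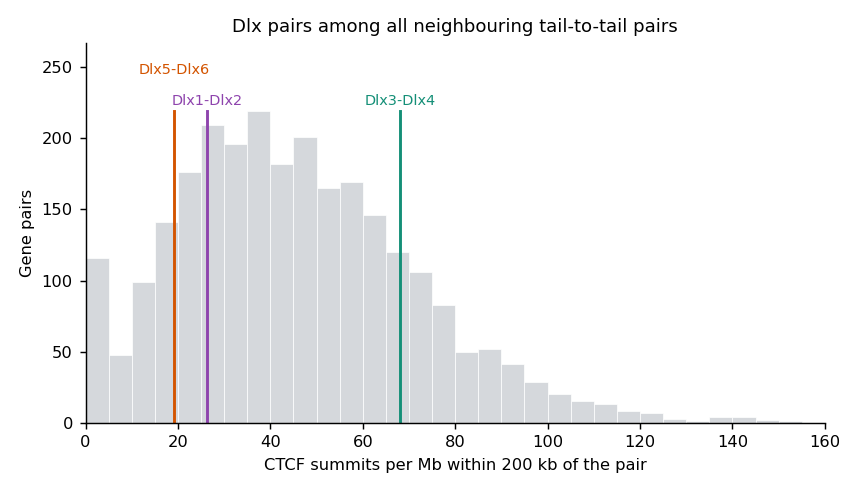
Number of neighbouring tail-to-tail protein-coding gene pairs (y axis, 2626 in all) by CTCF summits per Mb within 200 kb of the pair (x axis, bins of 5 per Mb). Coloured lines mark the Dlx pairs: Dlx1-Dlx2 and Dlx5-Dlx6 lie in the lower part of the distribution at 26.3 and 19.1 per Mb, and Dlx3-Dlx4 in the upper part at 68.1.

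None of the 6 Dlx genes had an optimal-list summit within 1 kb of a TSS, whereas 36.8% of 21938 protein-coding genes did. The nearest summit lay 19909 bp from the TSS of Dlx1, 1268 bp from Dlx2, 3032 bp from Dlx5 and 7244 bp from Dlx6, against 1412 bp from Dlx3 and 14665 bp from Dlx4. The median over the 6 genes was 5138 bp, close to the median of 4170 bp over all protein-coding genes. At 5 kb from a TSS, 3 of the 6 had a summit (Dlx2, Dlx5 and Dlx3), against 52.3% of protein-coding genes.

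Among the optimal list, the conservative list and the top peaks of each replicate alone, only the call at the Dlx2 promoter differed. The authors' conservative list held a peak there whose summit lay inside the gene and within 1 kb of the TSS, and the top peaks of replicate 1 alone and of replicate 2 alone also placed a summit within 1 kb of it. This peak was weak, with 14.5 in replicate 1, 14.5 in replicate 2 and 10.3 in the conservative list as its signal value. Signal value is the peak strength that the authors' peak caller wrote, on a scale not given in the sources used here. The median of the optimal list was 64.3 and that of the conservative list 67.6. Replicate values come from other lists and were not set against these medians.

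At the other Dlx promoters, the lists of each replicate alone, which reach far below the optimal list, held only weak calls within 1 kb. The strongest at Dlx1 was 10.95 in replicate 1 and 5.78 in replicate 2. At Dlx5 it was 9.05 in replicate 1 and 4.87 in replicate 2, and at Dlx6 it was 7.78 and 7.69. At Dlx3 it was 5.32 in replicate 1 with no call in replicate 2, and at Dlx4 it was 3.27 in replicate 1 and 7.46 in replicate 2. For scale, the median call over the whole list was 4.78 in replicate 1 and 4.18 in replicate 2. The pooled list had calls within 1 kb of all 6 genes. The strongest was 15.95 at Dlx1, 16.8 at Dlx2, 10.1 at Dlx5 and 14.8 at Dlx6, against 5.80 at Dlx3 and 11.6 at Dlx4. The median of that list was 7.84.

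A strong CTCF site stood just upstream of Dlx2, Dlx5 and Dlx3, and of none of their partners. Upstream of Dlx2, which promotes GABAergic fate, the summit at 1268 bp had a signal value of 125 in replicate 1 and 113 in replicate 2, and 239 in the optimal list. Upstream of Dlx5, which acts after Dlx2 in the same neurons, the summit at 3042 bp had 166 in replicate 1 and 149 in replicate 2, and 317 in the optimal list. Both optimal-list values lie well above that list's median of 64.3.

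Dlx3, a regulator of hair, skin and placenta, had a row of 3 strong sites on its upstream side. The summit at 1412 bp had a signal value of 193 in replicate 1 and 171 in replicate 2, that at 2958 bp had 209.6 and 212.9, and that at 13078 bp had 198 and 186. In the optimal list they stood at 365, 417 and 385. Among all listed peaks, the nearest upstream sites of Dlx2, Dlx5 and Dlx3 stood at the percentiles 85.5, 93.6 and 96.99 by signal value.

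The partner genes had no such site. The first summit upstream of Dlx1, a partner of Dlx2 in interneuron development, lay 74914 bp away, at the Metap1d promoter. It had a signal value of 29.5 in replicate 1 and 14.7 in replicate 2, and 44.3 in the optimal list. The first upstream of Dlx6, the partner of Dlx5, lay 399343 bp away, outside the window, with 25.2 in the optimal list. The first upstream of Dlx4, a gene known from placenta and the branchial arches, lay 14665 bp away. It had 10.6 in replicate 1 and 15.0 in replicate 2, and 27.2 in the optimal list. This summit was not in the conservative list, nor among the top peaks of replicate 1 alone, and the nearest summit to the Dlx4 TSS was then 27556 bp away in the conservative list and 27555 bp away in replicate 1.

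In the 5 kb upstream of the gene's 5′ end, then, Dlx2 and Dlx5 each had 1 summit and Dlx3 had 2, and Dlx1, Dlx6 and Dlx4 had 0. Such a summit was found for 31.2% of all protein-coding genes, and at exactly 1 of the 2 genes for 41.8% of the tail-to-tail pairs. The pattern was noticed in these data and rests on 3 pairs, so it is given as a description. In each pair the gene with the summit was the one of the same family branch.

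**Figure D3:**
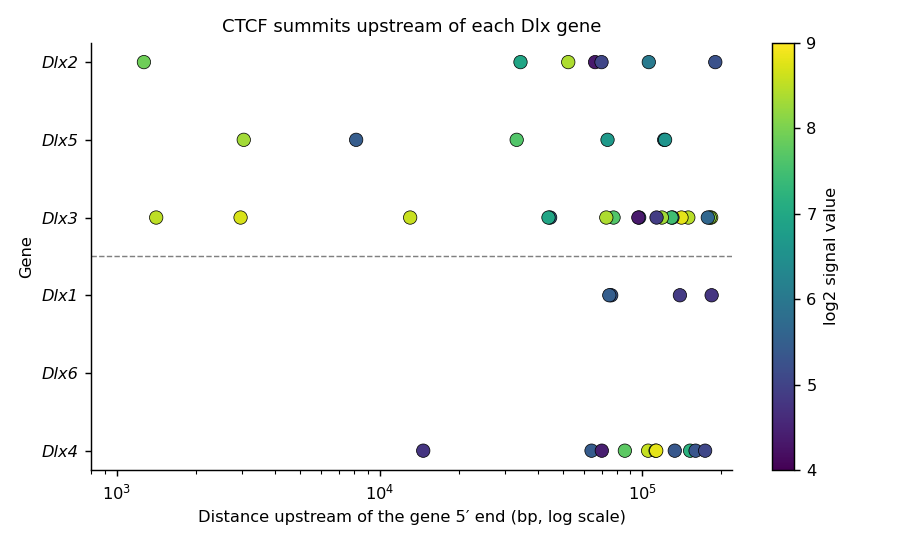
Distance in bp upstream of the 5′ end of each Dlx gene (x axis, log scale) of every optimal-list summit in its window, coloured by log2 signal value. The genes Dlx2, Dlx5 and Dlx3 stand above the dashed line and each have a summit within 5 kb; their partners Dlx1, Dlx6 and Dlx4 stand below it, and Dlx6 has no point at all.

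The motifs upstream of Dlx2, Dlx5 and Dlx3 lay on the strand of the gene. At the nearest upstream site of each, and at the next one of Dlx3, the motif match lay on the strand of the gene, so that it points into the pair. The same held for the first upstream motif match of Dlx1, at 76159 bp, and of Dlx4, at 14665 bp, so this orientation did not set the branches apart. Over all protein-coding genes with a motif match at the nearest summit in the 5 kb upstream, 57.1% had it on the strand of the gene. The matches themselves were of different quality, with 0 mismatches to the consensus at Dlx2, 2 at Dlx5, 2 at the nearer site of Dlx3 and 0 at the farther one.

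The sequences around these sites had little in common outside the motif. Of the 26 flanking bases printed for the nearest upstream site of each gene, 4 were the same at Dlx2 and Dlx5, 3 at Dlx2 and Dlx3, and 7 at Dlx5 and Dlx3. Of the 14 bases of the match, 11, 12 and 10 were the same in these comparisons. Those bases were picked for their likeness to the same consensus, so this agreement follows from the search. The number of like bases in unrelated DNA was not computed. The bases were compared position by position with no gaps.

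Inside the Dlx5-Dlx6 pair, both summits were of modest strength. The summit between the genes had a signal value of 37.8 in replicate 1 and 21.7 in replicate 2, and 57.5 in the optimal list. It lay in an intron of Dlx6os1, 1014 bp from its TSS. Dlx6os1, also known as Evf2, is a long noncoding RNA transcribed across the Dlx5-Dlx6 enhancer region that regulates these genes in developing ventral forebrain. The other summit, in an intron of Dlx5, had 16.3 in replicate 1 and 9.65 in replicate 2, and 25.02 in the optimal list. Both values are higher in replicate 1 and both summits lie below the median of the optimal list.

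The other antisense genes of the pairs had no summit in their bodies. The nearest summit lay 10131 bp from a TSS of Dlx1as and 5428 bp from a TSS of Dlx6os2, against 15876 bp for Dlx4os. Their transcription was not measured.

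The Dlx6 side of its pair was empty over a long distance. No summit lay within 200 kb of Dlx6 on that side, which was the case at 1 end or both of 7.73% of tail-to-tail pairs. The whole stretch without a summit ran for 406587 bp, chr6:6463991-6870578, from a site beyond the window to the summit between the genes. It holds Sem1, which encodes a small proteasome subunit, and all of Dlx6. Of the 56441 gaps between neighbouring summits on the same chromosome, 1.34% were as long, and the median gap was 15803 bp. This gap was picked as the longest touching its window. Each gap counts once in that share, whatever its length. Long gaps cover more of the genome than their share of gaps, and that cover was not computed.

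The Dlx1-Dlx2 pair also lay in a gap, of 94823 bp (chr2:71453199-71548022). It ran from the Metap1d promoter to the site upstream of Dlx2 and so held Dlx1, Dlx2 and Dlx1as whole. Its length was reached by 10.3% of all gaps, each again counted once, which is not the share of the genome in such gaps. The Dlx3-Dlx4 pair lay between summits 42221 bp apart, and the longest gap touching its window, 66661 bp, was at the window's outer edge. The summits just inside the outer window edges were 183674 and 189645 bp from the Dlx1-Dlx2 pair and 122147 bp from the Dlx5-Dlx6 pair, against 182940 and 173475 bp from Dlx3-Dlx4. Those just outside were 233298 and 240966 bp away for Dlx1-Dlx2 and 399343 and 238271 bp for Dlx5-Dlx6, against 249601 and 220468 bp for Dlx3-Dlx4.

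Summits of the forebrain windows lay near the average strength of the whole list and below that of the Dlx3-Dlx4 window. The median signal value was 40.5 around Dlx1-Dlx2 and 77.1 around Dlx5-Dlx6, against 146 around Dlx3-Dlx4. On the log2 scale the mean was 6.07 ± 1.26 in the forebrain windows (SD over 19 sites) and 6.88 ± 1.57 around Dlx3-Dlx4 (SD over 29 sites), a difference of -0.81. Over the whole optimal list the mean was 6.17, with 5.85 around Dlx1-Dlx2 and 6.36 around Dlx5-Dlx6. In replicate 1 the difference was -0.79 and in replicate 2 it was -0.88. The ranges overlapped widely, from 20.3 to 333 in the forebrain windows and from 20.2 to 445 around Dlx3-Dlx4, and 2 libraries of 1 group allow no test.

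The size of that difference depended on the window, at -0.40 with 100 kb and -0.12 with 500 kb on each side, and it was -0.51 in the conservative list. Of optimal-list summits above the percentile 90 by signal value, 2 lay in the forebrain windows and 10 in the Dlx3-Dlx4 window, or 2.39 and 23.5 per Mb. This cut was chosen after the values were seen.

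In the Dlx1-Dlx2 window the strongest summit lay 52270 bp upstream of Dlx2, in intergenic DNA. It had a signal value of 188 in replicate 1 and 145 in replicate 2, and 333 in the optimal list, with its motif on the plus strand, pointing away from the pair. The third strongest, 34395 bp upstream of Dlx2, had 66.8 and 54.2, and 122 in the optimal list. The bases within 50 bp of it had a GC content of 78.2% and no motif match.

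In the Dlx5-Dlx6 window the second strongest summit lay 33263 bp upstream of Dlx5, with 96.6 in replicate 1 and 100.3 in replicate 2 and 199.6 in the optimal list. Like the site at 3042 bp, it had its motif on the strand of Dlx5. The third strongest, at 102 in the optimal list, lay at the promoter of Sdhaf3, a succinate dehydrogenase assembly factor, and had no motif match. A doublet 985 bp apart in an intron of Sdhaf3 stood at 53.7 and 96.6.

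In the Dlx3-Dlx4 window the strongest summits stood at 445, 444 and 417 in the optimal list. The first lay 113020 bp upstream of Dlx4 and 2246 bp from the TSS of Tac4, a tachykinin gene, and had 237 in replicate 1 and 205.2 in replicate 2. The second lay 2771 bp from the TSS of Sgca, the sarcoglycan alpha gene of muscle, and had 239 in replicate 1 and 203 in replicate 2. The third was the site 2958 bp upstream of Dlx3 described above.

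Some other genes in the windows had a summit at that distance, and their share was not tested against the 36.8% of all protein-coding genes. Around Dlx1-Dlx2, 2 of 3 other protein-coding genes had a summit: Hat1, a histone acetyltransferase gene, at 29.2 in the optimal list, and Metap1d, a mitochondrial methionine aminopeptidase gene, at 44.3. Around Dlx5-Dlx6 the only other gene, Sdhaf3, had one at 102. Around Dlx3-Dlx4, 3 of 10 had one: the collagen gene Col1a1 at 349, the spinophilin gene Ppp1r9b at 176 and the integrin gene Itga3 at 123.

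A motif match within 50 bp of the summit was found at 10 of 19 sites of the forebrain windows, or 52.6% (exact 95% interval 28.9 to 75.6), against 22 of 29 around Dlx3-Dlx4, or 75.9% (56.5 to 89.7). The intervals overlap, and with up to 3 mismatches allowed the shares were 84.2% in the forebrain windows and 86.2% around Dlx3-Dlx4. Over the whole optimal list the share was 66.6%, and in DNA 1000 bp to the left or right of the summits it was 2.91% and 2.97%. By pair, the share was 5 of 11 around Dlx1-Dlx2 and 5 of 8 around Dlx5-Dlx6. The sites with a match had a median signal value of 75.1 in the forebrain windows and 236 around Dlx3-Dlx4. Those with none had 44.3 in the forebrain windows and 123 around Dlx3-Dlx4. By pair, the medians with and without a match were 96.6 and 57.5 around Dlx5-Dlx6. They hardly differed around Dlx1-Dlx2, at 40.5 and 41.4.

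The matches lay on both strands in each window, 3 on the plus strand and 2 on the minus strand in each forebrain window, against 12 and 10 around Dlx3-Dlx4. On the Dlx1 side of its pair the first match pointed towards the pair and the second away from it. On the Dlx2 side the first match pointed towards the pair and the next 2 away from it. On the Dlx5 side, the first, from the pair outwards, pointed towards the pair, the second away, the third towards it and the last 2 away. On the Dlx3 side the first 2 matches pointed towards the pair and the third away. On the Dlx4 side the first match, a weak one, pointed towards the pair.

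Several weaker sites shared a stretch of sequence, shown here because it recurs at all 3 pairs on different chromosomes.
Dlx1-Dlx2 window, chr2:71616704-71616743, plus strand: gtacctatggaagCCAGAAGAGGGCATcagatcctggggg
Dlx5-Dlx6 window, chr6:6890233-6890272, plus strand: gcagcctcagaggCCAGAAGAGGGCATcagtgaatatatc
Dlx3-Dlx4 window, chr11:95279217-95279256, plus strand: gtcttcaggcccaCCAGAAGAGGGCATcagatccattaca

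The 9 bases AGAAGAGGG, searched on both strands within 50 bp of the summit, were found at 4 of 19 sites in the forebrain windows and 3 of 29 around Dlx3-Dlx4. They overlap the CTCF core consensus. Their signal values ran from 27.5 to 44.1 in the forebrain windows and from 39.8 to 77.3 around Dlx3-Dlx4. Between 53.5% and 70.3% of the bases within 50 bp of these summits was marked as repeat in the genome sequence in the forebrain windows, and between 59.4% and 100% around Dlx3-Dlx4, while the median over sites of the windows with no such run was 0%.

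Over the whole optimal list the 9 bases were found at 10.6% of summits, against 0.873% and 0.953% of the DNA 1000 bp to the left and right. Listed summits with them had a median signal value of 40.8 and those without them 70.3. In rodents, short interspersed B2 repeats are known to carry a CTCF motif. The class of the repeats at these sites was not looked up, and the run was picked after the sequences were seen.

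The 2 libraries gave similar values at the Dlx sites. All of these sites come from a list thresholded by IDR, which selects for reproducible peaks. Their agreement is therefore no independent check on the libraries. After centring on the median of the whole optimal list, at which replicate 1 was 1.15 times replicate 2, the log2 ratio of replicate 1 to replicate 2 had an SD of 0.39 over the 48 sites, against 0.50 over the list. It ran from -0.99 to 0.81. The SD was 0.58 around Dlx1-Dlx2 and 0.32 around Dlx5-Dlx6, against 0.31 around Dlx3-Dlx4.

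**Figure D4:**
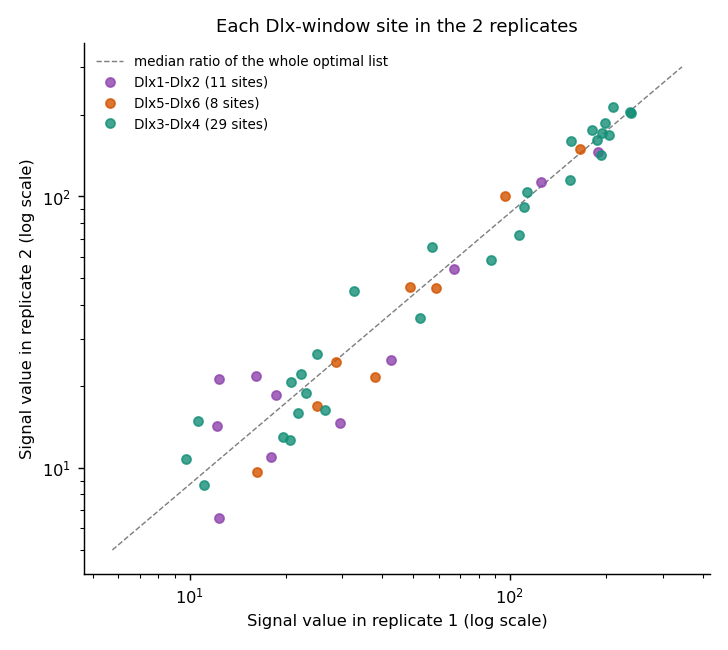
Signal value in replicate 1 (x axis) and replicate 2 (y axis) at the 48 Dlx-window sites, both on log scales, coloured by gene pair. The dashed line is the median ratio of 1.15 of the whole optimal list; the strong sites lie close to it and the widest departures are among weak sites.

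The widest departures were both at sites of the Dlx1-Dlx2 window with low values. The site 69969 bp upstream of Dlx2 had 12.3 in replicate 1 and 21.3 in replicate 2, and the Metap1d promoter had 29.5 and 14.7. Of the 48 sites, 9 of 11 around Dlx1-Dlx2 and 8 of 8 around Dlx5-Dlx6 overlapped a peak of the conservative list, against 28 of 29 around Dlx3-Dlx4. The same share over the whole optimal list was not computed, so these counts are not read as particular to the Dlx windows.

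Other genes of the ventral forebrain did have promoter sites. On a list of 30 such genes, none of them a Dlx gene, the number with a summit at most 1 kb from a TSS was 15, or 50% (exact 95% interval 31.3 to 68.7), an interval that includes the 36.8% of all protein-coding genes. Among those with high signal values were the chemokine receptor genes Ackr3 with 217 and Cxcr4 with 107, the GABA synthesis gene Gad1 with 186, and the transcription factor gene Zeb2 with 159.7. The difference between this list and the 6 Dlx genes was not tested.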

How the data were processed

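CTCF ChIP-seq peak lists on mm10 were used as deposited. Per the labels and file headers there is a list for each of 2 replicates, a pooled list, and a conservative and an optimal list thresholded by irreproducible discovery rate (IDR). No aligner or peak caller is given in the sources used here, and read depth is unknown. Each deposited list gives a signal value per peak, the authors' own, on an unstated scale, used to rank, filter and describe peaks. The deposited −log10 q-value and the authors' IDR score were read but support no result. A replicate's value at an optimal-list site is that of the strongest peak overlapping it there.

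Summits were placed as peak start plus summit offset and written 1-based. Genes were GENCODE M21, with TSSs the 5′ ends of basic transcripts. The 8 unplaced peaks of the 56470 in the optimal list were left out. The 14-base CTCF core consensus was searched within 50 bp of each summit, on either strand, allowing up to 2 mismatches. Densities were compared by an exact binomial test given window lengths, and intervals of shares are Clopper-Pearson. Both cover counting error only. The tools were scipy 1.17.1, numpy 2.4.6, pysam 0.24.0, pandas 2.3.3, samtools 1.23.1 and matplotlib 3.10.9 under Python 3.11.15, and the counting and motif steps were tested on simulated data.

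The members, lists and rules were chosen with earlier results of these data known. Named were the 6 Dlx genes and genes antisense to them, summits inside a pair, the first on each side, the 3 strongest per window, window genes with a promoter summit and the 5 genes of the ventral forebrain list with the highest signal value, of which 1 is not reported here. Other sites named, the summits above the percentile 90, the upstream sites by family branch and the 9-base run were chosen after values were seen. Alternatives were other lists, each replicate alone, other windows, distances, gaps and motif limits.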

Additional observations from a re-analysis of the deposited data

Results flagged for a closer look

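The authors' conservative list held 7 peaks in the Dlx windows that overlap no peak of the optimal list and so enter none of the counts above. In the Dlx1-Dlx2 window they were the peak at the Dlx2 promoter and an intergenic peak with a summit 109334 bp upstream of Dlx2, which had signal values of 12.97 in replicate 1 and 8.16 in replicate 2. In the Dlx5-Dlx6 window there was 1, an intergenic peak 12998 bp from the TSS of Sdhaf3, with 17.1 in replicate 1 and 13.7 in replicate 2 and a motif match with 2 mismatches. In the Dlx3-Dlx4 window there were 4, with signal values in the conservative list between 6.68 and 18.1, among them a peak 8236 bp upstream of Dlx3.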

How the results depend on the processing

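The lower density around the forebrain pairs kept its direction and passed the exact test under every alternative run except 100 kb on each side, where the ratio was 0.517 for all summits and 0.474 away from TSSs. Elsewhere it ran from 0.226 to 0.386 for all summits, each forebrain window alone included (0.386 for Dlx1-Dlx2, 0.281 for Dlx5-Dlx6), and was 0.102 above the percentile 90 by signal value. Without the empty 200 kb on the Dlx6 side, an alternative chosen after seeing the data, it was 0.438. With 1 replicate left out it ran from 0.328 to 0.361 for all summits and from 0.326 to 0.352 away from TSSs. These alternatives reuse the same 3 gene pairs, so they are not independent of each other, and the test covers counting error only. The difference in mean log2 signal value was -0.51 in the conservative list, -0.40 with 100 kb, -0.12 with 500 kb, and from -0.88 to -0.79 with 1 replicate left out. The share of sites with a motif match was 43.8% with at most 1 mismatch and 85.4% with at most 3. Dlx genes with a summit near a TSS numbered 3 at 5 kb, 1 in the conservative list and 1 with either replicate left out. Summits inside a pair numbered 0 in the optimal list's stronger part and from 2 to 3 with 1 replicate left out. In the Dlx1-Dlx2 pair alone there was 1 in the conservative list and with either replicate left out, against 0 in the optimal list, and in the Dlx5-Dlx6 pair 1 without replicate 1. The median distance to a TSS was 11475.5 bp in that stronger part. Ventral forebrain genes with a summit numbered 23 of 30 at 5 kb, where 52.3% of all protein-coding genes had one, and this difference was not tested. The causes were not tested. No paired analysis was possible because there was 1 group. With read depth unknown and the optimal list cut by an IDR threshold, a site missing from that list is not shown to be unbound.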
